A study of Homo sapiens with 6 samples.

Results

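The genes described here encode the kinetochore, the centromere and the spindle checkpoint, 44 listed genes in 9 groups named by complex or role. The list goes by gene name and sets no threshold on the values, but it was drawn up with earlier results of these data known, so the counts below describe the list. All 44 were measured among 18132 genes. The samples are U87 cells, a long-used human line grown from a glioblastoma, and their messenger RNA was measured on 1-colour Affymetrix arrays. There were 3 samples with overexpressed miR-151a, a microRNA, and 3 samples that overexpressed miR-NC, the negative control. The sources used here do not give how the microRNAs were introduced, for how long, or which arm of miR-151a was expressed. Nor do they say that replicates came from separate cultures, so p-values cover the spread among these samples, and part of it may be technical. The level of miR-151a itself was not analysed here.

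The kinetochore is the protein assembly on each chromosome that holds it to spindle microtubules during cell division. It is built on centromeric nucleosomes that carry the histone variant CENP-A. An inner layer, the constitutive centromere-associated network (CCAN), binds this chromatin, and an outer layer made of the KNL1, MIS12 and NDC80 complexes reaches the microtubules. Kinetochores without microtubules recruit the spindle checkpoint proteins, which hold back the separation of sister chromatids until every chromosome is attached. Transcripts of many of these proteins are known to rise in the late phases of the cell cycle in dividing cells.

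Values are probe set intensities on a linear scale. Each gene had 1 value per sample, from its probe set with the highest mean over all samples. Changes are given on the log2(intensity + 1) scale as miR-151a over miR-NC and were tested with limma, with Benjamini-Hochberg adjustment over all genes and a threshold of 0.05. A member is said to have fallen or risen if it passed that threshold. The median probe set intensity lay between 57.1 and 58.6 in the 6 samples, and 1470 genes were lower and 1318 higher with miR-151a. The first count was 1021 without miR-151a replicate 2, but 915 and 939 without miR-151a replicates 1 and 3, and leaving out miR-NC replicates 1, 2 and 3 gave 829, 822 and 800. The number of arrays limits the precision, and the median within-group SD over the members was 0.054 on the log2 scale. As a check of the cell type, the intermediate filament gene VIM had mean intensities of 19169.7 ± 297 with miR-151a and 19019 ± 484 with miR-NC (SD, n = 3 each), and the surface receptor gene CD44 had 5687 ± 253 with miR-151a and 6332 ± 271 with miR-NC (SD, n = 3 each). The glial gene GFAP averaged 61.4 ± 1.36 with miR-151a and 63.2 ± 0.592 with miR-NC (SD, n = 3 each), near the median probe set. OLIG2 averaged 63.8 ± 3.86 with miR-151a and 57.7 ± 5.43 with miR-NC (SD, n = 3 each). S100B averaged 19.2 ± 2.43 with miR-151a and 19.0 ± 1.34 with miR-NC (SD, n = 3 each), within the range of the genes of other cell types below. Of 6 glial and mesenchymal markers NES alone passed, at -0.31. Genes of other cell types (PTPRC, CD3E, PECAM1, EPCAM and ALB) had mean intensities between 7.53 and 36.4 with miR-151a and between 8.65 and 44.5 with miR-NC, and 0 of these 5 passed in limma (1, PECAM1, at an unadjusted p under 0.05).

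Kinetochore, centromere and checkpoint genes were lower with miR-151a as a broad set. Of 44 genes, 31 fell, 1 rose and 12 did not pass, while 8.11% of all genes fell and 7.27% rose. The median log2 fold change was -0.33 over the 44 genes and -0.0091 over all genes. All 3 miR-151a values lay below all 3 miR-NC values for 40 of the 44 genes, against 19.4% of all genes, and above them for MAD1L1, against 15.1% of all genes. The falls were of modest size, between 13.5% and 33.0% with a median of 22.8%, and 11 genes fell by over 25%. These sizes are those of the brightest probe sets. With the mean over probe sets, SPC24, SGO2, SKA2 and KNL1 of these 11 fell by less than 25%. Their log2 fold changes were then -0.32, -0.37, -0.37 and -0.39. With RNA from whole cultures, fewer dividing cells and less of these transcripts in each dividing cell cannot be told apart.

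**Figure D1:**
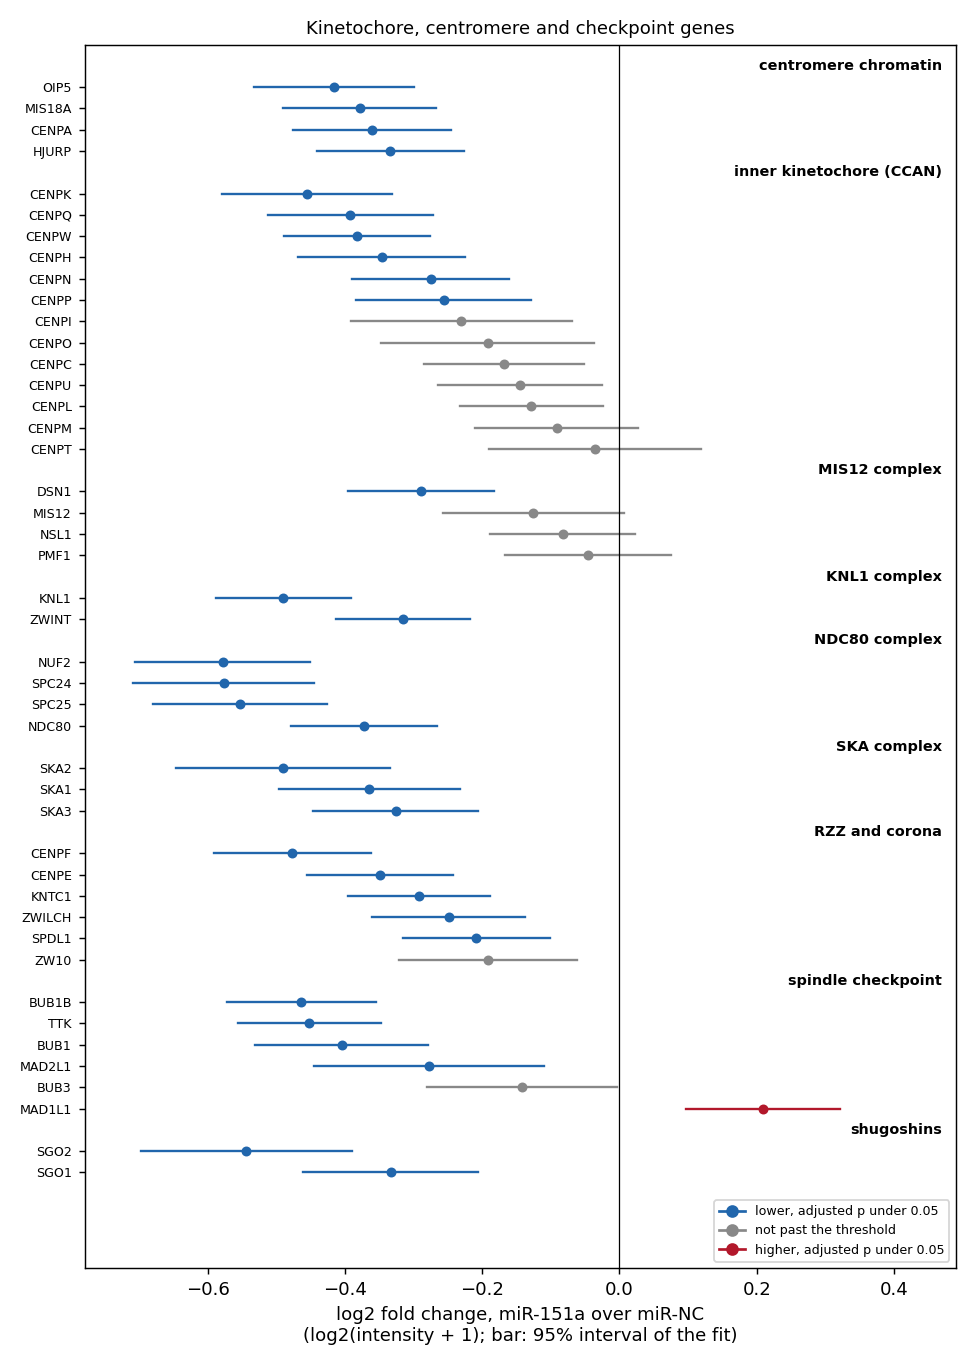
Log2 fold change of each of the 44 genes (miR-151a over miR-NC, log2(intensity + 1) scale, horizontal axis) by complex, with bars for the 95% interval of the limma fit. Blue points, 31 genes, lie left of 0, grey points are the 12 genes that did not pass, and the red point is MAD1L1 at 0.21.

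The shift was of like size in each sample. The median deviation of the 44 genes from their miR-NC mean was -0.33, -0.33 and -0.30 on the log2 scale in miR-151a replicates 1, 2 and 3, against 0.023, -0.011 and -0.0090 in miR-NC replicates 1, 2 and 3. Over all genes the same medians lay between -0.018 and 0.0025 in the 6 samples. For each gene the miR-NC deviations average 0 by construction, so the miR-NC medians show only the spread of that group. The members were brighter than most genes, with mean levels between the 52.1 and 97.2 percentiles of all genes. Across the 44 genes, which share the same 6 arrays, Spearman's rho of level and log2 fold change was -0.12. Groups with every member lower were centromere chromatin (4 of 4), the KNL1 complex (2 of 2), the NDC80 complex (4 of 4), the SKA complex (3 of 3) and the shugoshins (2 of 2). The remaining groups were mixed, with 6 of 13 lower in the CCAN, 1 of 4 in the MIS12 complex, 5 of 6 in the group of RZZ and corona genes, and 4 of 6 in the spindle checkpoint. Of all genes, 8.11% fell. Differences between groups were not tested.

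**Figure D2:**
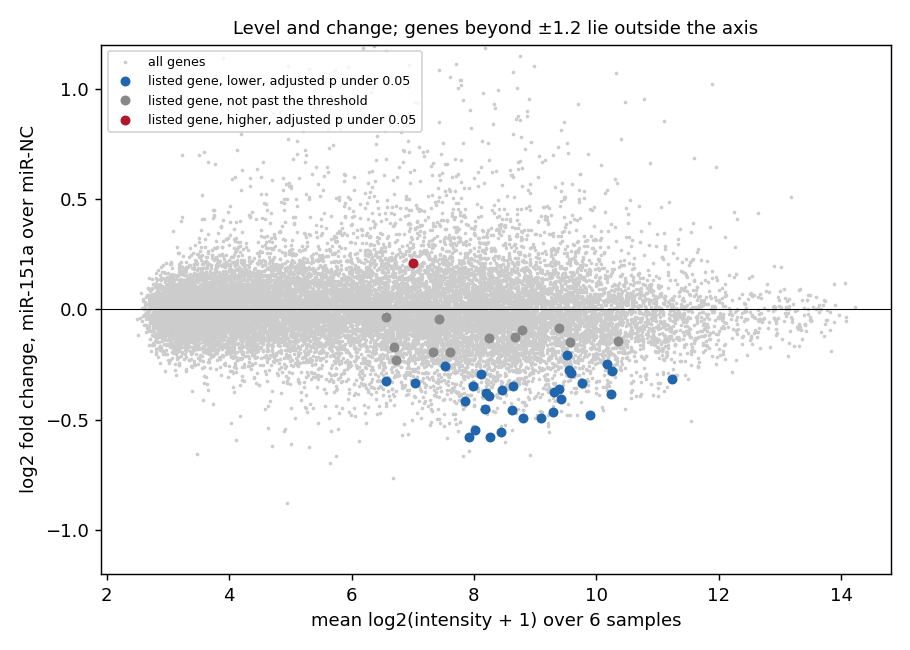
Mean log2(intensity + 1) over 6 samples (horizontal axis) against log2 fold change (miR-151a over miR-NC, vertical axis) for all 18132 genes (small grey points; a few rises above the axis limit are cut off) and the 44 listed genes (large points). The listed genes lie in the upper part of the level range, and 43 of 44 lie below 0.

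The NDC80 complex, the rod that binds microtubules, held the 3 lowest log2 fold changes of the 44 genes. Its median log2 fold change was -0.57. NUF2, which pairs with NDC80 at the microtubule-binding end, had intensities of 245, 258 and 249 in the miR-151a samples, against 395, 376 and 353 in the miR-NC samples. SPC24, at the end that faces the chromosome, had 188, 209.6 and 191 in the miR-151a samples, against 282, 299 and 299 in the miR-NC samples. Neither gene's groups overlapped: for both, even the highest miR-151a value was well under the lowest miR-NC value. NUF2 fell by 33.0% (log2 fold change -0.58, 95% interval -0.71 to -0.45, adjusted p = 0.000615) and SPC24 by 33.0% (-0.58, interval -0.71 to -0.45, adjusted p = 0.000743). SPC25, the partner of SPC24, had 268, 295 and 292 in the miR-151a samples, against 433, 418 and 404 in the miR-NC samples and fell by 31.9% (adjusted p = 0.000759). NDC80 itself, the subunit that gives the complex its name, had 559, 563 and 544 in the miR-151a samples, against 744, 704 and 710.2 in the miR-NC samples. Its fall of 22.8% (-0.37, interval -0.48 to -0.27, adjusted p = 0.00186) was smaller than those of its 3 partners, and that difference was not tested. SPC24 had 5 probe sets, of which 3 fell, and its log2 fold change was -0.32 with the mean over probe sets, while the other 3 genes had 1 probe set each.

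The promoters of the NDC80 complex genes are shown with those of BUB1, CENPA and MAD1L1. These 7 genes were picked with their changes known, and no gene that did not pass is shown. The promoters shown therefore cannot relate a sequence element to the direction of change. Sequences are from RefSeq on GRCh38.p14, 5′ to 3′ on the strand of the gene, from 130 bases before the annotated start to 25 bases from it. Capitals mark TTTGAA or TTCGAA (the cell cycle genes homology region, or CHR, an element that the MuvB complexes bind in promoters of genes used late in the cell cycle) and CCAAT (the box bound by the factor NF-Y), on either strand.
NDC80: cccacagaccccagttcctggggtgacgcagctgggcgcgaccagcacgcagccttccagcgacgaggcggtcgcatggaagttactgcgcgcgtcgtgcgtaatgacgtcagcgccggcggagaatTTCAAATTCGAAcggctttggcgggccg
NUF2: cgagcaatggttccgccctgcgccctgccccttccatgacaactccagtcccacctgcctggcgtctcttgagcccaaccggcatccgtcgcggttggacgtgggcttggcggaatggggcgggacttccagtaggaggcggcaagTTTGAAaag
SPC24: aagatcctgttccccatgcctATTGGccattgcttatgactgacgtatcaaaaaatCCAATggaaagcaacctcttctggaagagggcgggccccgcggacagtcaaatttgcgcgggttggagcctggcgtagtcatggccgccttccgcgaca
SPC25: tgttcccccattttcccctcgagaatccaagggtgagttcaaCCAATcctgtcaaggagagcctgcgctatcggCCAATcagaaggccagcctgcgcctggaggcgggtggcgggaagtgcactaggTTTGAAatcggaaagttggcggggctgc
BUB1: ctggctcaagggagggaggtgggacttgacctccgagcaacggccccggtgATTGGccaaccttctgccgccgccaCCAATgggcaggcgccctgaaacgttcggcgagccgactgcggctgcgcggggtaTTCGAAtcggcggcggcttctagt
CENPA: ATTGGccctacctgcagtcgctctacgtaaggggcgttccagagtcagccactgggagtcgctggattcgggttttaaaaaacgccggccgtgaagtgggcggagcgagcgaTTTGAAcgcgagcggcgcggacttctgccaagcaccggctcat
MAD1L1: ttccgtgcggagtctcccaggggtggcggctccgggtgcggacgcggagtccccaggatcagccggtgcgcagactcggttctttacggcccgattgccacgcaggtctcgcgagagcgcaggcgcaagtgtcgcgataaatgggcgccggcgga
These windows lie at chr18:2571427-2571581, plus strand, for NDC80, chr1:163321824-163321978, plus strand, for NUF2, chr19:11155758-11155912, minus strand, for SPC24 and chr2:168890406-168890560, minus strand, for SPC25. Those of BUB1, CENPA and MAD1L1 lie at chr2:110678039-110678193, minus strand, at chr2:26785926-26786080, plus strand and at chr7:2232921-2233075, minus strand.

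In the NDC80 promoter a reverse TTTGAA and a TTCGAA stand side by side, from 3 bases before the start to base 9 after it. The same words begin 3 bases before the start in SPC25, at base 2 in BUB1, at base 17 in NUF2 and 18 bases before it in CENPA. SPC24 has 2 CCAAT boxes in the window shown and no CHR word, and the MAD1L1 window holds neither word. Of the 44 genes, 36 were matched to RefSeq windows of 300 bases (250 before the start and 50 from it), and 5 of them have several windows. The 8 without a window were KNL1, TTK, MIS18A, CENPH and KNTC1, which fell, and BUB3, CENPL and CENPM, which did not pass. A CHR word was found for 20 of the 36 (55.6%), against 17.6% of 14425 measured genes and 19.5% of all 27305 genes with a window. A CCAAT box was found for 24 (66.7%), against 42.4% of measured genes and 39.7% of all genes with a window, and both words for 14 (38.9%), against 9.07% and 9.02%. An E2F word (TTTCCCGC, TTTCGCGC, TTTGCCGC or TTTGGCGC, on either strand) was found for 4 (11.1%), against 5.53% and 3.99%. In the windows of the members 0 pairs of words overlapped. Among the members with a window, 17 of 26 that fell and 3 of 10 that did not fall had a CHR word. A match of so few letters is a description of the window and not a binding site.

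Of the 2 genes of the KNL1 complex, the outer scaffold that the BUB proteins dock on, KNL1 had the smallest adjusted p among the 44 genes. KNL1 had intensities of 456, 460.0 and 466 in the miR-151a samples, against 655, 652 and 635 in the miR-NC samples. ZWINT, its partner, was the brightest member, with 2159, 2143 and 2198 in the miR-151a samples, against 2738, 2674 and 2680.3 in the miR-NC samples. Both genes were separated between the groups with narrow spreads. KNL1 fell by 28.8% (-0.49, interval -0.59 to -0.39, adjusted p = 0.000419) and ZWINT by 19.7% (-0.32, interval -0.41 to -0.22, adjusted p = 0.00266). A dimmer probe set of KNL1 had a log2 fold change of -0.82 (mean intensities 141 with miR-151a and 249 with miR-NC, adjusted p over all probe sets = 0.000287). This was the lowest value of any probe set of the 44 genes, and a very dim one, with means of 7.51 with miR-151a and 7.22 with miR-NC, was at 0.057.

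The MIS12 complex, which joins the inner and outer layers, had the median log2 fold change nearest 0 among the 9 groups, at -0.10. DSN1 had 679.9, 689 and 717 in the miR-151a samples, against 873, 838 and 838 in the miR-NC samples and fell by 18.2% (-0.29, interval -0.40 to -0.18, adjusted p = 0.00559). DSN1 was the 1 subunit that passed, while 8.11% of all genes fell. MIS12 had 384, 392 and 388 in the miR-151a samples, against 455, 401 and 415 in the miR-NC samples, a log2 fold change of -0.13 (interval -0.26 to 0.006, adjusted p = 0.193). The lowest of its miR-NC values was close above the miR-151a values, and without miR-NC replicate 1, the highest, its log2 fold change was -0.073 (adjusted p = 0.436). NSL1 had a log2 fold change of -0.083 (adjusted p = 0.287) and PMF1 of -0.046 (interval -0.17 to 0.075, adjusted p = 0.634, and from -0.083 to -0.017 without 1 sample), with overlapping groups for PMF1. The probe sets of NSL1 differed: its bright one, with 649.5 ± 19.8 with miR-151a and 688 ± 12.9 with miR-NC (SD, n = 3 each), was at -0.083, and a dim one with means of 43.1 with miR-151a and 56.5 with miR-NC was at -0.38 (adjusted p over all probe sets = 0.00865). With the mean over its 3 probe sets NSL1 passed as lower, at -0.21 (adjusted p = 0.0225).

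**Figure D3:**
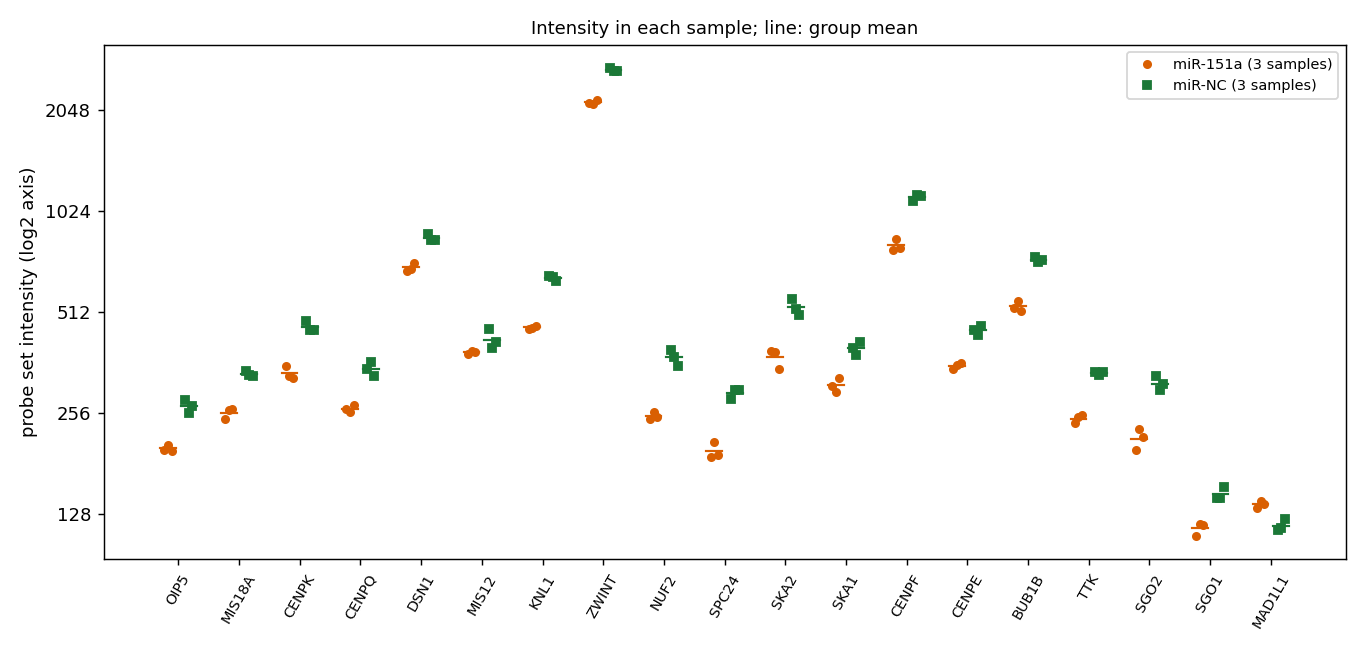
Probe set intensity (log2 axis) in each of 3 miR-151a samples (circles, left) and 3 miR-NC samples (squares, right), with a line at the group mean, for the 2 genes of each group with the largest absolute log2 fold change and for MAD1L1. The miR-151a values lie below the miR-NC values for every gene drawn except MAD1L1, where they lie above.

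In the inner kinetochore the calls of the CCAN genes were split, though all 13 log2 fold changes were below 0. Of 13, 6 fell and 7 did not pass, while 8.11% of all genes fell, and the median log2 fold change of the 13 was -0.23. Values were lower without overlap for 11 of 13, against 19.4% of all genes. Of the 7, CENPC and CENPI passed in 3 of 14 alternative analyses, CENPL, CENPO and CENPU in 2, and CENPM and CENPT in 0. The difference between genes that passed and genes that did not was not tested. CENPK and CENPH belong to the CENP-H, CENP-I, CENP-K, CENP-M arm. CENPK had 353, 331 and 325 in the miR-151a samples, against 482, 452 and 451 in the miR-NC samples and fell by 27.1% (-0.46, interval -0.58 to -0.33, adjusted p = 0.00158). CENPH had a fall of 21.4% (adjusted p = 0.00445). The other genes of that arm did not pass: CENPI was at -0.23 (interval -0.39 to -0.070, adjusted p = 0.0628) and CENPM at -0.092 (interval -0.21 to 0.027, adjusted p = 0.294). CENPM was 1 of the 3 genes of the whole set with overlapping groups, with 413, 421 and 439 in the miR-151a samples, against 433, 471 and 453 in the miR-NC samples.

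Among the genes of the CENP-O, CENP-P, CENP-Q, CENP-U arm, CENPQ had the largest difference. It had 263, 257 and 270.0 in the miR-151a samples, against 346, 363 and 329.6 in the miR-NC samples, and it fell by 23.8% (-0.39, interval -0.51 to -0.27, adjusted p = 0.00254). CENPP fell by 16.3% (-0.26, adjusted p = 0.0187). This call was lost without miR-151a replicates 1 or 3 or miR-NC replicates 2 or 3 (adjusted p = 0.0587, 0.0579, 0.0581 and 0.0607), and with the mean over its 3 probe sets (adjusted p = 0.131). CENPO and CENPU did not pass, at -0.19 (adjusted p = 0.0989) and -0.15 (adjusted p = 0.105). CENPO had 140.3, 164 and 145 in the miR-151a samples, against 177, 164 and 171 in the miR-NC samples, where miR-151a replicate 2 was the highest of its group and just below the lowest miR-NC value. Without that sample CENPO passed (adjusted p = 0.0318).

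CENPN and CENPL form the pair that recognises the CENP-A nucleosome. CENPN fell by 17.4% (-0.28, interval -0.39 to -0.16, adjusted p = 0.00926), and 4 of its 6 probe sets fell. CENPL was at -0.13 (interval -0.23 to -0.025, adjusted p = 0.1000). CENPW, a histone-fold protein that pairs with CENP-T, was the brightest gene of the CCAN. It had 1078, 1038 and 1062 in the miR-151a samples, against 1338, 1385 and 1423 in the miR-NC samples and fell by 23.3% (adjusted p = 0.00173). Its partner CENPT was at -0.035 (interval -0.19 to 0.12, adjusted p = 0.788, and from -0.10 to -0.0011 without 1 sample), with overlapping groups. CENPC, the scaffold that links the nucleosome to the MIS12 complex, was at -0.17 (interval -0.28 to -0.052, adjusted p = 0.0615). Its second probe set was at 0.15, and the mean over both was -0.010 (adjusted p = 0.916).

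Centromere chromatin genes fell in every case, while 8.11% of all genes fell. CENPA encodes the centromeric histone, HJURP its chaperone, and OIP5 (also known as MIS18B) and MIS18A the MIS18 subunits that license its loading. OIP5 had 198, 206 and 197 in the miR-151a samples, against 279, 256 and 268 in the miR-NC samples and fell by 25.1% (-0.42, interval -0.53 to -0.30, adjusted p = 0.00177). MIS18A had 245, 261 and 263 in the miR-151a samples, against 340.2, 331 and 329 in the miR-NC samples and fell by 23.1% (-0.38, interval -0.49 to -0.27, adjusted p = 0.00216). For both genes a clear gap separated the groups. CENPA had 605, 569 and 595 in the miR-151a samples, against 753, 786 and 734 in the miR-NC samples and fell by 22.1% (adjusted p = 0.00294). All 4 probe sets of CENPA fell, between -0.43 and -0.36. HJURP had 752, 772 and 808 in the miR-151a samples, against 977, 984 and 977 in the miR-NC samples, with the miR-NC samples nearly equal, and fell by 20.7% (adjusted p = 0.00307).

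The SKA complex, which helps NDC80 hold on to shortening microtubules, was lower in all 3 subunits. SKA2 had 391, 389 and 347 in the miR-151a samples, against 562, 522 and 501 in the miR-NC samples and fell by 28.8% (-0.49, interval -0.65 to -0.34, adjusted p = 0.00294). Its other probe set, with means of 249 with miR-151a and 297 with miR-NC, also fell, at -0.25. With the mean over both probe sets SKA2 was at -0.37. SKA1 had 307, 295 and 325 in the miR-151a samples, against 399, 379.7 and 416 in the miR-NC samples and fell by 22.3% (-0.36, adjusted p = 0.00525). SKA1 was at -0.24 with the mean over its 2 probe sets, since its dim one was at -0.12. SKA3, the dimmest of the 44 genes by its mean level, had 82.7, 82.1 and 84.3 in the miR-151a samples, against 101, 102 and 111 in the miR-NC samples and fell by 20.3% (adjusted p = 0.00548). Groups did not overlap for any of these 3 genes, and 19.4% of all genes were lower without overlap. The share of all genes that fell was 8.11%.

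Of the genes of the RZZ complex and the fibrous corona, the outermost layer of an unattached kinetochore, 5 of 6 fell. Over all genes the share that fell was 8.11%. CENPF, a large coiled-coil protein of the corona, had 784, 847 and 794 in the miR-151a samples, against 1099, 1141 and 1136 in the miR-NC samples and fell by 28.2% (-0.48, interval -0.59 to -0.36, adjusted p = 0.000906). CENPE, the kinesin that carries chromosomes to the spindle equator, had 347, 355 and 359.8 in the miR-151a samples, against 451, 438 and 465 in the miR-NC samples and fell by 21.5% (-0.35, interval -0.46 to -0.24, adjusted p = 0.00246). The lowest miR-NC value of each gene stood clear of its miR-151a values. The RZZ subunits differed in their calls. KNTC1, which encodes ROD, fell by 18.4% (adjusted p = 0.00470), ZWILCH fell by 15.8% (adjusted p = 0.0124, and 0.0511 without miR-NC replicate 3), and ZW10, at -0.19 (interval -0.32 to -0.061, adjusted p = 0.0578), did not pass. ZW10, which also serves in membrane traffic outside mitosis, had 187, 169 and 187 in the miR-151a samples, against 199.9, 212 and 208 in the miR-NC samples. It passed in 6 of 14 alternative analyses. SPDL1, or Spindly, the adaptor that brings dynein to the corona, fell by 13.5% (-0.21, adjusted p = 0.0212). That call was lost without miR-151a replicates 1 or 2 or miR-NC replicates 1 or 3 (adjusted p = 0.0593, 0.0567, 0.0746 and 0.0720).

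Of the 6 spindle checkpoint genes 4 fell, 1 rose and 1 did not pass, while 8.11% of all genes fell and 7.27% rose. Among the 44 genes MAD1L1 was the 1 that rose, which is not above the share of all genes that rose. Among the genes that fell, BUB1B, which encodes BUBR1 of the mitotic checkpoint complex, had 527, 552 and 516 in the miR-151a samples, against 749, 723 and 729 in the miR-NC samples. TTK, which encodes MPS1, the kinase that starts checkpoint signalling, had 238, 248 and 252 in the miR-151a samples, against 339.7, 332 and 339.5 in the miR-NC samples. In both genes the miR-NC samples were close together and well above the miR-151a samples. BUB1B fell by 27.5% (-0.46, interval -0.57 to -0.36, adjusted p = 0.000831) and TTK by 26.9% (-0.45, interval -0.56 to -0.35, adjusted p = 0.000758). BUB1, the docking kinase, had 617, 566 and 597 in the miR-151a samples, against 822, 781 and 755 in the miR-NC samples and fell by 24.5% (adjusted p = 0.00279). BUB3, which carries BUB1 and BUBR1 to KNL1, was among the brightest members with 1239 ± 62.5 with miR-151a and 1368 ± 73.2 with miR-NC (SD, n = 3 each) and did not pass (-0.14, interval -0.28 to -0.003, adjusted p = 0.164).

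MAD2L1 and MAD1L1, whose proteins bind each other at unattached kinetochores, had opposite signs. MAD2L1 encodes MAD2, the inhibitor of the activator CDC20, and had 1183, 1132 and 1029.8 in the miR-151a samples, against 1448, 1350.3 and 1258 in the miR-NC samples. MAD1L1 encodes MAD1, the anchor for MAD2, and had 133, 139 and 137 in the miR-151a samples, against 114, 116 and 123 in the miR-NC samples. The lowest miR-151a value of MAD1L1 was above its highest miR-NC value, and the reverse held for MAD2L1. MAD2L1 fell by 17.5% (-0.28, interval -0.45 to -0.11, adjusted p = 0.0390), and 3 of its 4 probe sets fell. MAD1L1 rose by 15.6% (0.21, interval 0.10 to 0.32, adjusted p = 0.0250), and its other 2 probe sets were at 0.13 and 0.21 without passing. Both calls were lost when single samples were left out. MAD2L1 did not pass without miR-151a replicates 2 or 3 or miR-NC replicates 1 or 2 (adjusted p = 0.0791, 0.107, 0.115 and 0.0987). MAD1L1 did not pass without the same samples (adjusted p = 0.0729, 0.0714, 0.0849 and 0.0883) or with the mean over its probe sets (0.18, adjusted p = 0.0546).

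The shugoshin genes, whose proteins guard centromeric cohesin until anaphase, both fell. SGO2 had 198, 229 and 217 in the miR-151a samples, against 329, 298 and 311 in the miR-NC samples and fell by 31.4% (-0.54, interval -0.70 to -0.39, adjusted p = 0.00181). SGO1 had 109.7, 119 and 119 in the miR-151a samples, against 142, 142 and 153 in the miR-NC samples and fell by 20.6% (-0.33, interval -0.46 to -0.21, adjusted p = 0.00649). All 3 probe sets of SGO2 fell, at -0.54, -0.30 and -0.25, so its size varied with the probe set. Groups did not overlap for either gene, and 19.4% of all genes were lower without overlap. The share of all genes that fell was 8.11%.

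Over all their probe sets, 52 of 93 fell and 1 rose with adjustment over all 49293 probe sets, of which 7.27% fell and 6.81% rose. The brightest probe set fell for 31 genes. Of the other 49 probe sets, which 23 genes had, 21 fell and 0 rose in limma, and 1 was higher at an unadjusted p under 0.05. By level, 3 of 15 with a mean intensity under 50 fell, and 18 of 34 brighter ones. No gene had probe sets past the threshold in opposite directions.

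**Figure D4:**
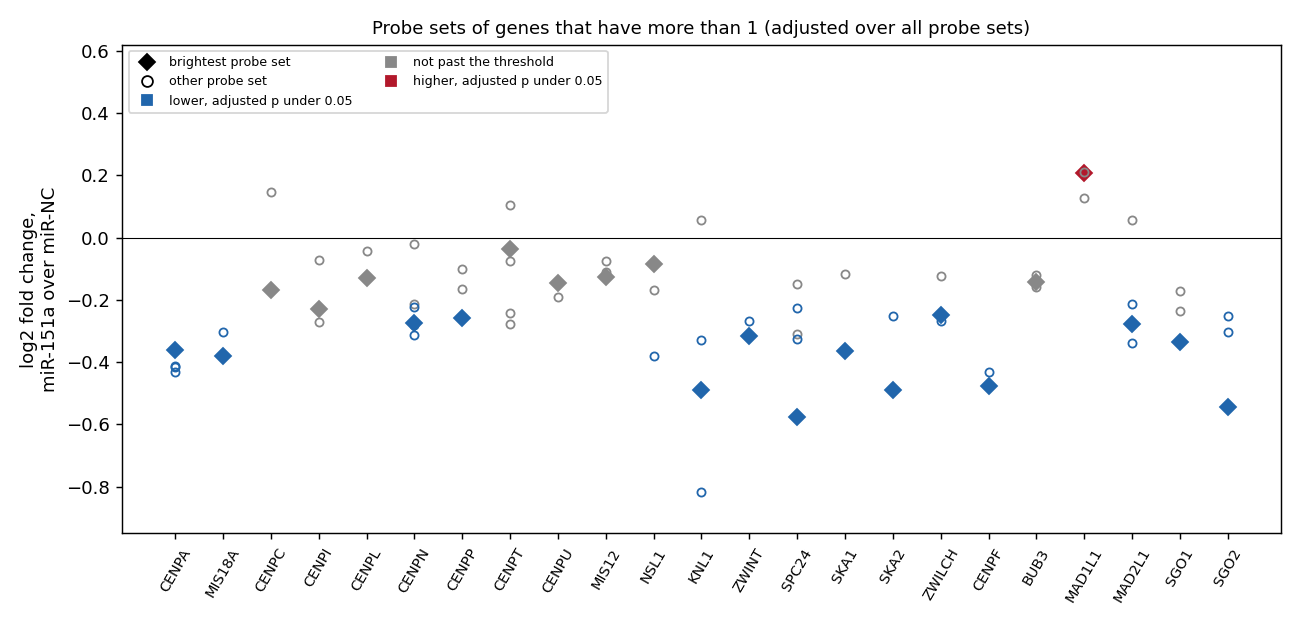
Log2 fold change (miR-151a over miR-NC, vertical axis) of every probe set of the 23 genes that have more than 1, with filled diamonds for the brightest and open circles for the others. Colours give the call with adjustment over all probe sets, and the lowest circle is the KNL1 probe set at -0.82.

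Other genes of the kinetochore and centromere were also lower in part. Of 24 listed, 23 were measured, and their median log2 fold change was -0.23. Of these, 13 fell and 0 rose in limma (3 were higher and 14 lower at an unadjusted p under 0.05), while 8.11% of all genes fell and 7.27% rose. The count that rose was 2 or 3 in some alternatives that keep all samples. AURKB and CDCA8, subunits of the chromosomal passenger complex that corrects wrong attachments, fell by 26.8% and 28.2%. The microtubule depolymerase gene KIF2C fell by 21.7%, TRIP13, which encodes the ATPase that takes apart the checkpoint complex, by 20.9%, and KNSTRN, a partner of the microtubule-binding protein astrin, by 21.6%. CDC20, the target of the checkpoint, fell by 22.9% (-0.38, and -0.22 with the mean over its probe sets). Adjusted p-values of these 6 genes lay between 0.000545 and 0.00364.

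General markers of proliferation moved with these genes. All 9 listed fell, by a median of -0.34 on the log2 scale in a range from -0.53 to -0.21, among them the proliferation antigen MKI67 at -0.44, the S and M phase cyclin CCNA2 at -0.53 and the nucleotide reductase subunit RRM2 at -0.35. The smallest of these changes was that of MCM2, a subunit of the replicative helicase that is named here after its values were seen, at -0.21 (adjusted p = 0.0205). It passed in 8 of 14 alternative analyses, and not with the replicate block (adjusted p = 0.0659) or without any 1 of the miR-151a samples or miR-NC replicates 1 or 3 (adjusted p from 0.0522 to 0.0748), where 8 of 9 fell. The mean intensity of MKI67 was 941 ± 38.5 with miR-151a and 1279 ± 5.07 with miR-NC (SD, n = 3 each). Of 11 listed genes of the MuvB complexes and their partners, which act through CHR elements, 3 fell and 1 rose, while 8.11% of all genes fell and 7.27% rose. The 1 rise in 11 genes is near the share over all genes. The number that fell was 2 when miR-151a replicate 2 or, in its place, miR-NC replicate 3 was left out, 5 with a pseudocount of 32, 7 with the variance trend and robust fit, and 6 with the mean over probe sets. FOXM1, a late cell cycle transcription factor, fell by 30.7% (adjusted p = 0.000411) and TFDP1, the partner of E2F proteins, by 19.5% (adjusted p = 0.0123). The MuvB subunits that passed went in opposite directions. LIN9 fell by 15.3% (adjusted p = 0.0206, passing in 10 of 14 alternative analyses), while LIN37 rose by 30.5% (adjusted p = 0.00358). The 3 prime control probe set of beta-actin, set against its 5 prime one as a sign of RNA quality, had a log2 ratio that was -0.11 apart between miR-151a and miR-NC samples (miR-151a minus miR-NC, 95% interval -0.17 to -0.060). For GAPDH the difference was 0.0063 (-0.012 to 0.025). The part of proliferation or of RNA quality in the changes of the 44 genes was not tested.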

How the data were processed

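The authors deposited linear intensities for 49395 probe sets in 6 samples. Per the submitters' processing notes, MAS5 was used, with no version or role given; other steps are unknown here. All columns had similar quantiles. Whether the arrays were scaled to each other is unknown, and if they were, a shift of all transcripts would not be seen. After 102 control probe sets were left out, 44988 named 1 gene in the platform annotation (1832 several, 2473 none), of which 44961 were updated by Entrez identifier to RefSeq. A gene was represented by the probe set brightest on average after log2(intensity + 1). Groups came from sample titles. limma 3.58.1 in R 4.3.3 (lmFit, eBayes, no covariate) was also run on simulated data, with the outcome not given here. With 3 samples against 3, exact permutation cannot go below p = 0.1. Promoters were searched in Python 3.11.15, and matplotlib 3.10.9 drew the figures.

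The members, lists and tests were chosen with earlier results of these data known. The rule gave values in every sample for the 2 members of each group with the largest absolute change and for members that rose, and further members were added after their values were seen. From each other list, at most 6 passing genes with the smallest p were eligible. Alternatives covered scaling (quantile, median centring), a pseudocount of 32, removal of genes below the 0.25 quantile of level, a robust variance trend, weighted arrays, a block for the replicate number, averaged probe sets, and omission of each sample.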

Additional observations from a re-analysis of the deposited data

How the results depend on the processing

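Of 14 alternatives, none turned the sign of any of the 44 genes, and 27 of the 31 genes that fell passed in all 14. The count of 31 ranged from 30 to 37 over the alternatives that keep all samples and from 28 to 30 without 1 sample. The 13 further kinetochore and centromere genes that fell became 10 to 14, and 10 to 12 without 1 sample. That list's 0 rises became 3 with quantile normalization, a pseudocount of 32, dim genes removed, the robust variance trend, or weighted arrays. They became 2 with the mean over probe sets and stayed 0 with median centring, the replicate block, and without 1 sample. The 52 member probe sets that fell became 39 to 63, and 36 to 45 without 1 sample. The 1 gene that rose became 0 with the replicate block and 0 with the mean over probe sets, and 0 or 1 without 1 sample, since MAD1L1 then missed the threshold in limma (1 gene was higher at an unadjusted p under 0.05 in each of these fits). Over all genes, the 1470 lower genes became 2218 with a pseudocount of 32, 2388 with the variance trend and robust fit, 822 with the replicate block, and 800 to 1021 without 1 sample, where fewer samples enter the fit. The cause of the first 3 of these changes was not tested. The 1318 higher genes ranged from 887 to 1102 without 1 sample. Across the 616 values of the 44 genes under the alternatives, 21 lost the call and 20 gained it.

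Same-numbered samples did not deviate together: the correlations of their deviations from the group means over genes were -0.11, -0.15 and 0.066 for numbers 1, 2 and 3. The highest correlations joined different numbers. They were 0.16 for miR-151a replicate 2 with miR-NC replicate 1 and 0.16 for miR-151a replicate 1 with miR-NC replicate 2. A pairing across numbers was not tested. The replicate block is therefore only an alternative. With it 30 of the 44 genes fell and 0 rose, and SPDL1 and MAD1L1 missed the threshold (adjusted p = 0.0664 and 0.0639). Without detection calls, how much of a dim probe set's intensity is background is unknown.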
